A study of Mus musculus with 6 samples.

Results

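Expression of the Msx and Dlx homeobox genes was followed in mouse dental epithelial organoids (DEOs) grown in media with and without FGF10 and an inhibitor of Notch signaling. The group holds 8 genes, Msx1, Msx2, Dlx1, Dlx2, Dlx3, Dlx4, Dlx5 and Dlx6. They were taken by gene symbol out of the 47360 symbols in the expression table, and each symbol had 1 entry.

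The DEOs came from dissociated apical bud epithelium of the incisor, which holds the adult dental epithelial stem cells (aDESCs), of wild-type C57BL/6J mice that were female and 9 weeks old. Cells grew in Matrigel, a basement membrane gel, for 14 days in media that all held conditioned media with Wnt3a and R-spondin1, EGF at 100 µg/ml, N-acetylcysteine, the ROCK inhibitor Y27632 and Noggin, a secreted BMP antagonist, at 200 µg/ml. The +N medium had no further factor, +ND had DBZ, a γ-secretase inhibitor that blocks the cleavage of Notch receptors, at 10 µM as the labels have it (the methods text gives the same figure in mmol/L), +NF had FGF10 at 100 µg/ml, and +NFD had both. Each medium was represented by 1 library, the sources used here do not state how many mice, wells or organoids went into it, and the media with Jagged1, +NJ and +NFJ, were not analysed here.

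Msx and Dlx genes encode homeodomain transcription factors that bind short AT-rich DNA motifs. Msx proteins act mainly as repressors, many Dlx proteins as activators, and members of both families are known targets of BMP signaling. In the tooth they are used by the mesenchyme as well as by the epithelium, where MSX2 and DLX3 are linked to enamel formation, and DLX3 also acts in the differentiation of epidermis and hair. In mammals the Dlx genes lie in pairs that face each other tail to tail.

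The homeobox, the 180 bases that encode the DNA-binding homeodomain, is shown for Msx2 and Dlx3, the members linked to enamel formation, as 1 example of each family. It lies whole in exon 2 of Msx2, at chr13:53468370-53468549 on the minus strand of GRCm38. In Dlx3 it is split between exons 2 and 3 within chr11:95121767-95123456 on the plus strand. The sequences run 5′ to 3′ along the GENCODE M21 transcripts, and the capitals mark the 18 bases for the stretch of tryptophan, phenylalanine, glutamine, asparagine and a basic pair in the helix that contacts DNA.
Msx2: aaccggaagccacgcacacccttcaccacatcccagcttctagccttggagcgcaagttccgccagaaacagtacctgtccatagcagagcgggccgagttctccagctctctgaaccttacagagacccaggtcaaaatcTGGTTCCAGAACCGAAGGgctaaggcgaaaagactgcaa
Dlx3: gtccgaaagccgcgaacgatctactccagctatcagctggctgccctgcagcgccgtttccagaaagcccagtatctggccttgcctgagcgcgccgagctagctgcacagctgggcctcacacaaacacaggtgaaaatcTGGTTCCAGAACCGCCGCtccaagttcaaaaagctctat
Over these 180 bases Msx2 and Dlx3 were 62.8% identical. The 15 Dlx pairs were between 66.1% and 81.7% identical, and the 12 pairs of an Msx with a Dlx gene between 54.4% and 65%. The longest run of bases shared by the transcripts of 2 members was 44 bases, between Msx2 and Dlx6, and within the Dlx family it was 23 bases.

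Levels were given as FPKM, fragments per kilobase of transcript scaled to the number of mapped fragments, so that levels of different genes could be compared per length. From the smallest steps in low FPKM values the libraries held about 27400000 (+N), 22100000 (+ND), 28700000 (+NF) and 28900000 (+NFD) fragments. The 8 housekeeping genes listed were above 0 in every library. Of these, B2m was lower in both DBZ libraries, at 1112 (+N), 311 (+ND), 1125 (+NF) and 236 FPKM (+NFD). No other was past 2-fold in +ND over +N or in +NFD over +NF. Krt14 and Krt5, the keratins of basal epithelium, were between 5530 and 12652 FPKM and between 4984 and 6582 FPKM, and none of the 8 epithelium markers was at 0 in all libraries. All 3 Notch target genes that passed the filter used below were at least 2-fold lower in +ND than in +N, against 5.29% of all genes. Hes1 was at 157 FPKM in +N and 74.6 in +ND, and at 109 in +NF and 80.1 in +NFD. Nrarp, a feedback regulator of Notch, was at 18.2 and 2.80 FPKM in the first pair and at 9.12 and 2.60 in the second. Notch3 was at 23.4 and 7.90 FPKM in the first pair and at 19.7 and 11.3 in the second. In +NFD over +NF only 1 of the 3, Nrarp, was at least 2-fold lower, against 2.69% of all genes.

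All 8 genes had their highest level in +NFD, the medium with both FGF10 and DBZ. Across the 13748 genes that reached 1 FPKM in any library, 32.6% were highest in +NFD. The 8 genes summed to 57.7 (+N), 101 (+ND), 65.9 (+NF) and 143 FPKM (+NFD). With no replicates there was no test. The folds of FPKM below carry exact 95% intervals from approximate fragment numbers, which cover counting error and no variation between cultures. In bulk RNA a lower level in each cell and fewer cells that express a gene cannot be told apart.

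**Figure D1:**
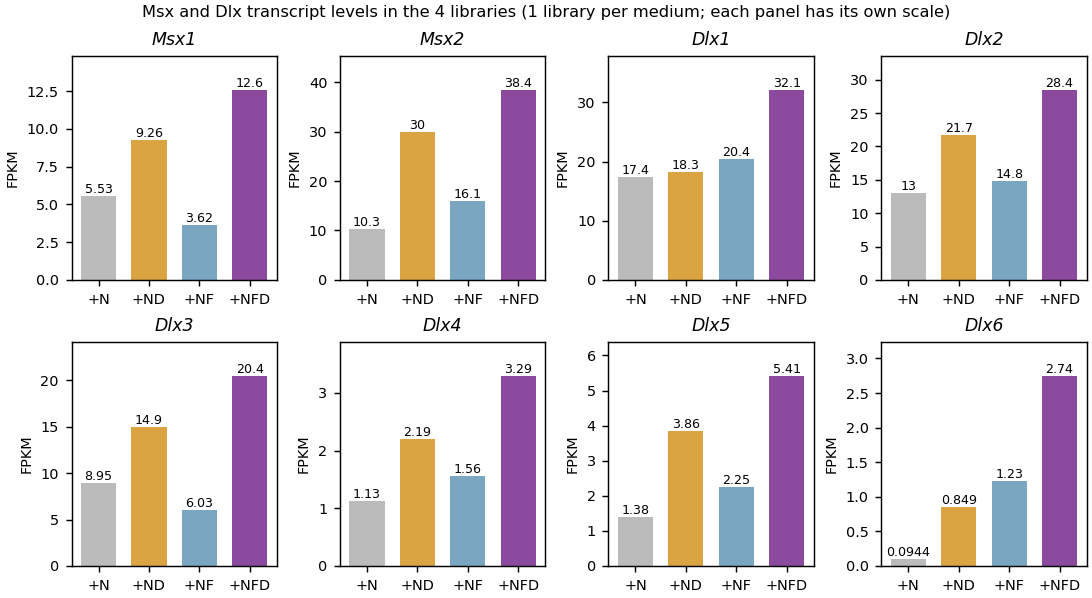
FPKM (vertical axis, linear, its own scale in each panel) of the 8 genes in the +N, +ND, +NF and +NFD libraries, 1 bar per library with no error bar because each medium had 1 library. The +NFD bar is the highest in all 8 panels, from 2.74 FPKM for Dlx6 to 38.4 for Msx2, and Msx1 and Dlx3 have their lowest bar in +NF.

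Msx2, on chromosome 13 (53466884 to 53473074, minus strand), encodes a repressor that is needed for normal ameloblasts. It was at 10.3 (+N), 30.0 (+ND), 16.1 (+NF) and 38.4 FPKM (+NFD). Both libraries with DBZ were above both without it. The ratio was 2.90 for +ND over +N (2.65 to 3.18), 1.55 for +NF over +N (1.41 to 1.71) and 3.72 for +NFD over +N (3.42 to 4.05). DBZ in the presence of FGF10 gave 2.39 (2.23 to 2.56), and FGF10 in the presence of DBZ gave 1.28 (1.20 to 1.36). Msx2 was the member with the largest share of the summed level in +ND, 29.7%, against 17.9% in +N.

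Msx1, on chromosome 5 (37820485 to 37824583, minus strand), is best known for its role in dental mesenchyme and is mutated in inherited tooth agenesis. It was at 5.53 (+N), 9.26 (+ND), 3.62 (+NF) and 12.6 FPKM (+NFD). Its order of libraries was unlike that of Msx2, since the medium with FGF10 alone had the lowest level. The ratio of +NF over +N was 0.655 (0.544 to 0.786) and that of +NF over +ND 0.391 (0.328 to 0.464), while with DBZ present FGF10 gave 1.35 (1.20 to 1.54). The ratio for DBZ was 1.67 without FGF10 (1.44 to 1.95) and 3.47 with it (2.96 to 4.08).

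Dlx3, on chromosome 11 (95120119 to 95125296, plus strand), encodes an activator whose mutation in humans affects hair, teeth and bone. Dlx3 was at 8.95 (+N), 14.9 (+ND), 6.03 (+NF) and 20.4 FPKM (+NFD). These values had the same order as those of Msx1. The ratio was 0.673 for +NF over +N (0.595 to 0.761), 0.404 for +NF over +ND (0.360 to 0.453) and 1.37 for +NFD over +ND (1.26 to 1.49). DBZ gave 1.67 without FGF10 (1.5 to 1.85) and 3.39 with it (3.05 to 3.77).

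Dlx4, the partner of Dlx3 on chromosome 11 (95140447 to 95146263, minus strand), was at 1.13 (+N), 2.19 (+ND), 1.56 (+NF) and 3.29 FPKM (+NFD). It was low in every library and, unlike Dlx3, was lowest in +N. The ratio of +NF over +N was 1.39 (1.02 to 1.91), and that of +NFD over +N was 2.91 (2.23 to 3.90). The level of Dlx3 was 7.94 (+N), 6.81 (+ND), 3.86 (+NF) and 6.22 (+NFD) times that of Dlx4. The long RNA Dlx4os, which overlaps Dlx4 by 1212 bases on the other strand, had FPKM values of 0.576, 0.985, 0.405 and 1.41 in that order of libraries. That overlap is of whole genes, introns included, and shared exon bases were not examined. Because the strand setting of the counting is not given in the sources used here, any reads in shared exon bases cannot be told apart.

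Dlx1 and Dlx2, on chromosome 2, are needed together for the upper molars and lie 9426 bases apart. Dlx1 (71528113 to 71533981, plus strand) was at 17.4 (+N), 18.3 (+ND), 20.4 (+NF) and 32.1 FPKM (+NFD). Its +N and +ND levels could not be separated, with a ratio of 1.05 (0.986 to 1.13). Dlx1 was the member with the smallest span, 1.85-fold from the lowest to the highest library (1.75 to 1.95). Dlx2 (71543408 to 71546754, minus strand) was at 13.0 (+N), 21.7 (+ND), 14.8 (+NF) and 28.4 FPKM (+NFD). Unlike Dlx1, Dlx2 was higher with DBZ in the absence of FGF10, by 1.67-fold (1.53 to 1.83). Dlx1 was therefore above Dlx2 in +N, +NF and +NFD, at 1.34, 1.38 and 1.13 times its level, and below it in +ND, at 0.842 times. The gene of the antisense RNA Dlx1as, introns included, covers all of Dlx1, and shared exon bases were not examined. Dlx1as was between 0.428 and 0.806 FPKM, and Metap1d, which ends 2918 bases upstream of Dlx1, was at 18.0, 18.7, 18.9 and 23.2 FPKM.

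Dlx5 and Dlx6, on chromosome 6, are known for setting the identity of the lower jaw and for roles in bone. Dlx5 (6877805 to 6882085, minus strand) was at 1.38 (+N), 3.86 (+ND), 2.25 (+NF) and 5.41 FPKM (+NFD). Its order was that of Msx2, with ratios over +N of 2.79 for +ND (2.00 to 3.90), 1.63 for +NF (1.15 to 2.32) and 3.90 for +NFD (2.88 to 5.34). Dlx6 (6863334 to 6868568, plus strand) was at 0.0944 (+N), 0.849 (+ND), 1.23 (+NF) and 2.74 FPKM (+NFD). This was the widest span of the group, 29.1-fold, but the +N value rested on about 5.72 fragments and the interval ran from 12.5 to 76.6. With the shortest coding transcript as its length the +N value stood for about 1.56 fragments and the interval ran from 5.95 to 193. The +ND and +NF levels of Dlx6 could not be separated, with a ratio of +NF over +ND of 1.45 (0.970 to 2.13). Dlx6 was at 0.0682 times the level of Dlx5 in +N and at 0.220, 0.547 and 0.507 times in +ND, +NF and +NFD. The gene of the antisense RNA Dlx6os1, introns included, spans Dlx6. Its FPKM values were 0.0450, 0.262, 0.330 and 0.450, which rank the libraries as Dlx6 itself does. Whether its exons share bases with those of Dlx6 was not examined, and reads from any such bases cannot be told apart.

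**Figure D2:**
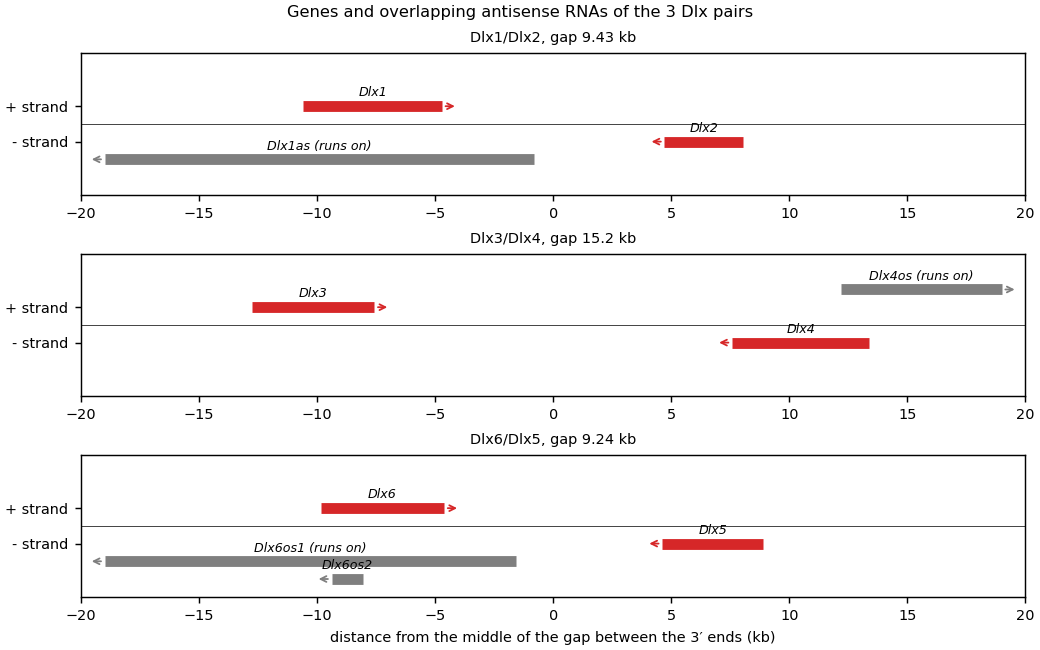
Map of the 3 Dlx pairs, with distance in kb from the middle of the gap between the 3′ ends on the horizontal axis, plus-strand genes above the line and minus-strand genes below it. Red bars are the Dlx genes, grey bars the overlapping antisense RNAs and arrows the direction of transcription; within each pair the genes point at each other across gaps of 9.43, 15.2 and 9.24 kb.

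Of the 48 ratios between pairs of libraries over the 8 genes, 46 had a counting interval that did not hold 1. The exceptions were the 2 given above for Dlx1 and Dlx6. The same count was not made over all genes, and the intervals were not recomputed after scaling. For Dlx2 and Dlx4 in +NF over +N the intervals, 1.04 to 1.25 and 1.02 to 1.91, held the median factor of all genes, 1.08. When genes were ranked by FPKM among the 153 homeobox genes listed, from the highest down, Msx2 stood at rank 15 in +N and at rank 7 in +NFD, Dlx1 at 11 and 9, and Dlx6 at 64 and 35. Msx1, Dlx2, Dlx3, Dlx4 and Dlx5 stood at 22, 13, 16, 36 and 33 in +N and at 18, 11, 15, 32 and 28 in +NFD.

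The comparison of +ND with +N addressed DBZ in the absence of FGF10. Ratios were taken as log2 of (FPKM + 1) over (FPKM + 1) for genes that reached 1 FPKM in the higher of both libraries, which understates the difference for low genes such as Dlx6. All 7 members that passed this filter were higher in +ND (Dlx6 did not pass), and 58.2% of 13173 genes were. Msx2, at 1.45, and Dlx5, at 1.03, were at least 2-fold higher, 2 of 7 members against 5.88% of all genes. The other log2 ratios were 0.07 for Dlx1, 0.59 for Dlx4, 0.65 for Msx1, 0.68 for Dlx3 and 0.70 for Dlx2. No member was 2-fold lower, as 5.29% of genes were, and the median was 0.68 over the members and 0.10 over all genes. Dlx1 turned to the other side of 0 when the ratios were centred on the median of all genes or the libraries were scaled to their upper quartile, and then only Msx2 remained past 2-fold. Centring also turned the balance of all 2-fold genes, from 774 higher and 697 lower to 615 and 842.

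FGF10 in the absence of DBZ, +NF over +N, separated the members by sign. Msx1 and Dlx3 were lower in +NF, each with a log2 ratio of -0.50, and the other 6 were higher, from 0.18 for Dlx2 to 1.03 for Dlx6. Higher levels in +NF were found for 65.7% of 13090 genes. Dlx6 alone was at least 2-fold higher, against 2.76% of all genes, and no member was 2-fold lower, against 2.44%. Dlx6 passed the filter only through its higher library, so that its call was partly set by the filter, as it also was in +NFD over +N and +NFD over +ND. The median was 0.24 over the members and 0.12 over all genes. With centred ratios Dlx6 was no longer past 2-fold, and the genes past 2-fold went from 361 higher and 319 lower to 248 and 412.

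Together, in +NFD over +N, the 2 factors came with a higher level of all 8 members, as in 69.1% of 13358 genes. At least 2-fold higher were 7 of 8 members, against 5.85% of all genes, with Dlx1 at 0.85 the one below. Msx2 at 1.80, Dlx6 at 1.77 and Dlx5 at 1.43 led, and Dlx3, Dlx2, Msx1 and Dlx4 lay just above 2-fold, at 1.11, 1.07, 1.05 and 1.01. The count therefore depended on the scaling and was 4 with upper-quartile scaling (Msx2, Dlx6, Dlx5 and Dlx3) and 3 with centred ratios (Msx2, Dlx6 and Dlx5), when 4.9% and 4.04% of all genes were 2-fold higher. None was 2-fold lower, against 4.03% of genes. Centring moved the genes past 2-fold from 782 higher and 538 lower to 540 and 714. The median log2 ratio was 1.09 over the members and 0.18 over all genes.

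The remaining comparisons asked for each factor in the presence of the other. For DBZ with FGF10 present, +NFD over +NF, all 8 members were higher, against 57.2% of 13349 genes. Dlx3 (1.61), Msx1 (1.55) and Msx2 (1.21) were at least 2-fold higher, against 3.72% of genes, and none was 2-fold lower, against 2.69%. With a pseudocount of 0.1 or none, Dlx4, Dlx5 and Dlx6 passed 2-fold as well, which made 6 of 8, and 5.53% or 5.44% of all genes then did. For FGF10 with DBZ present, +NFD over +ND, all 8 were again higher, against 59% of 13293 genes. Only Dlx6 (1.02) was 2-fold higher, against 3.39% of genes, and it was not after centring. None was 2-fold lower, against 3.11% of genes. Centring moved the genes past 2-fold from 450 higher and 414 lower to 345 and 506. These 5 comparisons share libraries and are not independent of each other.

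Across the 4 libraries, DBZ came with a higher level in both pairs for all 8 members and 38.2% of genes as deposited. Without Dlx1, 7 members kept this pattern under upper-quartile scaling, when 31% of genes had it, and after division by the median ratio, when 29.3% had it. Both DBZ libraries lay above both others for 6 members, all but Dlx1 and Dlx6, and for 26.7% of genes. FGF10 came with a higher level in both pairs for 6 members, all but Msx1 and Dlx3, and for 39.7% of genes. The order +NFD, +ND, +NF, +N was that of Msx2, Dlx2, Dlx4 and Dlx5, and of 7.68% of genes. Msx1 and Dlx3 were lower with FGF10 alone and higher with FGF10 when DBZ was present, a pattern of 19% of genes.

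**Figure D3:**
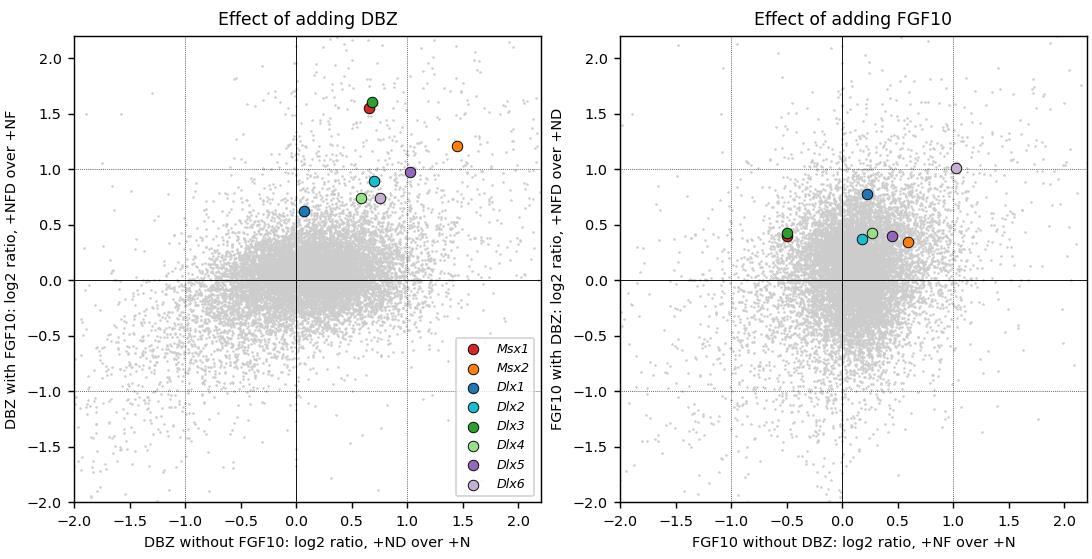
Log2 ratios of (FPKM + 1) for adding DBZ (left; without FGF10 on the horizontal axis, with FGF10 on the vertical) and for adding FGF10 (right; without and with DBZ), with the 8 genes as colored points over all genes in grey and dotted lines at 2-fold. All 8 genes lie in the upper right of the left panel, and in the right panel Msx1 and Dlx3 nearly coincide at -0.50 on the horizontal axis and at 0.40 and 0.43 on the vertical.

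The log2 ratio for DBZ with FGF10 minus that without it measured how far the 2 factors departed from acting separately. It was 0.93 for Dlx3 and 0.90 for Msx1, and 4.44% and 4.85% of 13748 genes had a value at or above these. It was 0.56 for Dlx1, 0.20 for Dlx2 and 0.16 for Dlx4. For Dlx6, Dlx5 and Msx2 it was -0.010, -0.048 and -0.24. The Dlx6 value depends on the pseudocount and on few fragments in +N. Without a pseudocount its log2 ratio for DBZ was 3.17 without FGF10 and 1.16 with it. Over all genes the median was -0.023 and the quartiles were -0.37 and 0.31. On the FPKM scale, adding the separate differences of +ND and +NF to +N would give 7.36 for Msx1 and 12.0 for Dlx3, where 12.6 and 20.4 were measured in +NFD, and 35.7 for Msx2, where 38.4 was measured.

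The genes most alike in pattern were found by the mean absolute difference in log2(FPKM + 1), each gene centred on its own mean over the 4 libraries, among 10466 genes that reached 5 FPKM in any library. Msx1 and Dlx3 were each other's closest gene, with a difference of 0.021, and the next for both were Atf5, a stress-responsive transcription factor, and Lhfp. Atf5 was at 17.3 (+N), 27.5 (+ND), 13.2 (+NF) and 39.8 FPKM (+NFD). Msx1 stood 0.33 from Msx2, and Dlx3 stood 0.31 from its neighbour Dlx4. The closest members in the rest of the group were Dlx2 and Dlx4, at 0.068. Distances between members were taken without the filter at 5 FPKM, which Dlx4 did not reach, and the pseudocount shrinks the ratios of Dlx4. In +NFD over +N the fold without a pseudocount was 2.91 for Dlx4 and 2.19 for Dlx2. Slc29a1, a nucleoside transporter, was closest to Msx2 at 0.076, the kinesin gene Kifc2 to Dlx1 at 0.030, the linker histone gene H1fx to Dlx2 at 0.036 and Insig1, a regulator of sterol synthesis, to Dlx5 at 0.028. With 4 libraries such a likeness is a description.

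Mesenchyme markers also had their highest level in +NFD, and since Msx and Dlx genes are used by dental mesenchyme these values stand beside the members. None of the 12 markers was at 0 in any library, and all 12 were highest in +NFD, where their summed level was 675 FPKM, while +N, +ND and +NF had 275, 260 and 174. In +NFD over +N, 11 of the 12 were at least 2-fold higher, with a median log2 ratio of 1.48. Thy1, Pdgfra (0.675 FPKM in +N) and Twist1 (0.896 in +N) passed the filter only through +NFD, which partly set their calls. Prrx1, a homeobox gene of mesenchyme, was at 2.08 (+N), 8.46 (+ND), 2.23 (+NF) and 15.6 FPKM (+NFD), and Thy1, a surface protein of fibroblasts, at 0.0769, 1.04, 0.325 and 11.1. In +ND over +N, 1 of 11 markers was 2-fold higher (Prrx1) and the median was 0.24. In +NF over +N, none of 11 was 2-fold higher, 2 were 2-fold lower and the median was -0.49. The part of mesenchymal cells in the levels of the Msx and Dlx genes was not tested. The 8 epithelium markers summed to 20436, 11319, 16009 and 13435 FPKM in +N, +ND, +NF and +NFD, and the 6 macrophage markers to 572, 465, 406 and 343. These sums follow mostly Krt14 and Krt5 among the epithelium markers and Lyz2, at 528, 408, 373 and 288 FPKM, among the macrophage markers. In +NFD over +N, 3 of 8 epithelium markers and 3 of 5 macrophage markers past the filter were higher. Endothelium and neural crest or Schwann cell markers stayed below 1 FPKM each, with sums of at most 0.326 and 0.882.

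The BMP pathway was represented by ligands, receptors and Smads and by a list of genes that BMP is known to induce. Bmp4, the ligand most tied to Msx genes in tooth development, was at 5.04 (+N), 11.3 (+ND), 13.3 (+NF) and 15.9 FPKM (+NFD). It was lowest in +N and highest in +NFD, as Msx2 was, but higher in +NF than in +ND. Of 8 ligand, receptor and Smad genes that passed the filter, Bmp4 was the one past 2-fold in +NFD over +N, and none was 2-fold lower. Bmp2 was at 106, 98.5, 62.6 and 57.3 FPKM, and Bmp7 at 12.6, 17, 21.5 and 24.6. In +ND over +N, 2 of the 9 induced genes were higher, none was past 2-fold in either direction and the median was -0.63. Id1 was at 296 (+N), 152 (+ND), 197 (+NF) and 260 FPKM (+NFD), and Id3 at 399, 226, 340 and 469. In +NFD 4 of the 9 had their highest level, and 8 of 9 were higher in +NFD than in either +NF (median 0.40, 1 past 2-fold) or +ND (median 0.77, 3 past 2-fold). In +NFD over +N 1 of the 9 was 2-fold higher, Grem1, a secreted BMP antagonist, and the median was -0.11.

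**Figure D4:**
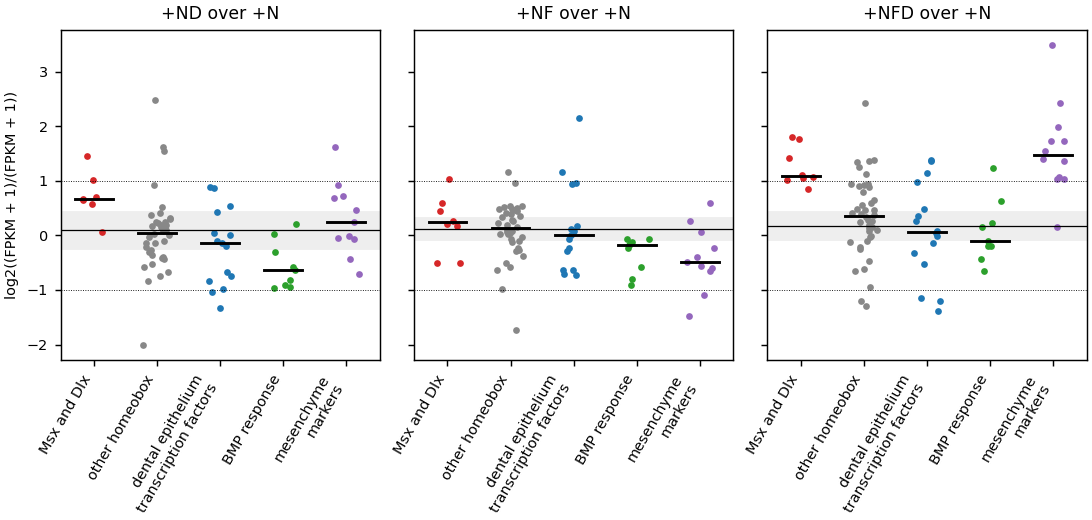
Log2 ratios of (FPKM + 1) over +N for +ND (left), +NF (middle) and +NFD (right), 1 point per gene that reached 1 FPKM in the higher of both libraries, and a black bar at each list's median; the thin line and grey band are the median and quartiles of all genes, and dotted lines mark 2-fold. The medians of the Msx and Dlx genes are 0.68, 0.24 and 1.09, those of the mesenchyme markers 0.24, -0.49 and 1.48, and those of the BMP response genes -0.63, -0.18 and -0.11.

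Other transcription factors were counted in the same way. Of 21 transcription factors listed for dental epithelium 16 reached 1 FPKM, and 6 of them were highest in +NFD. The list is not specific to epithelium, since it holds Barx1, Lhx6, Lhx8, Pax9 and Runx2, which dental mesenchyme also uses. Pax9 and Runx2 were among the 6 highest in +NFD. In +NFD over +N 3 of 16 were 2-fold higher and 3 were 2-fold lower, with a median of 0.06. Of 145 other homeobox genes 44 reached 1 FPKM and 21 of these were highest in +NFD, and in +NFD over +N 6 of 42 were 2-fold higher and 2 were 2-fold lower, with a median of 0.36. The difference between these lists and the Msx and Dlx genes was not tested. The lists overlap, since Pitx1 is in both and also among the epithelium markers, and Prrx1 is both a homeobox gene and a mesenchyme marker.

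Enamel genes and a list of epidermal and hair genes linked to DLX3 were read at the same time. Amelx, which encodes the main enamel matrix protein, was at 0.269 (+N), 0.272 (+ND), 0.120 (+NF) and 323 FPKM (+NFD). Between +NFD and +ND, Msx2 differed by 1.28-fold and Dlx3 by 1.37-fold. Of 5 enamel genes that passed the filter in +NFD over +N, 3 were 2-fold higher (Amelx, Ambn and Enam) and 2 were 2-fold lower (Amtn and Odam). Amelx, Ambn (0.340 FPKM in +N) and Enam (0 in +N) passed only through +NFD, so that their calls were partly set by the filter. In the epidermal and hair list, 4 of 7 genes were 2-fold higher and 1 was 2-fold lower in +ND over +N. Lor, which encodes a protein of the cornified envelope, was at 12.7, 220, 13.4 and 164 FPKM, with both DBZ libraries above both others. In +NFD over +ND, where Dlx3 was 1.37-fold higher, none of the 7 genes was higher and 5 were 2-fold lower, with a median of -1.34. Krt1, a keratin of the layers above the basal one, was at 0.300, 52.2, 0.0123 and 1.07 FPKM, with +ND far above the others. Any relation of the enamel, epidermal and hair genes to the levels of Msx2 or Dlx3 was not tested.

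Promoter sequence was read for the 4 members found in the RefSeq promoter table of GRCm38.p6, Msx1, Msx2, Dlx1 and Dlx2. The 250 bases before the start were searched on both strands for TGGGAA (RBPJ, the DNA-binding partner of Notch), CTTTGAT (TCF/LEF, of Wnt signaling), GGCGCC (a GC-rich element bound by BMP Smads) and TAATTG (homeodomain). The 4 promoters held 1 match in all to these letters, GGCGCC in Dlx2 from 99 to 94 bases before the start. Other forms of the homeodomain motif were not searched, such as TAATTA, which is present in the Msx2 sequence. Of the 32851 RefSeq promoters read in the same way, 21.6%, 3.21%, 9.59% and 7.17% held the 4 motifs in these 250 bases, in the order given. The Dlx2 sequence, at chr2:71546755-71547004 on the minus strand, is shown as the one with a match, which stands in capitals.
Dlx2: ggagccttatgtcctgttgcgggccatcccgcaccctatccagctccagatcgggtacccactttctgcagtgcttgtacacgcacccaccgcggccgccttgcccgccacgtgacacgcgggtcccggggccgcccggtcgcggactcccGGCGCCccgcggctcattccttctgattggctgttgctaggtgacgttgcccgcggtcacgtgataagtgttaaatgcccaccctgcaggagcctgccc
GC content was between 61.6% and 68% in the 4 members against a median of 52.4% in all promoters. The annotated starts of Msx2 and Dlx1 in RefSeq lie 294 and 1332 bases inside the GENCODE genes, so other start sites of these genes were not searched.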

How the data were processed

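Total RNA of organoids was made into libraries with the TruSeq RNA kit and sequenced on an Illumina HiSeq. The authors used FastQC 0.11.9 for read quality, Trim Galore 0.6.5 for trimming, TopHat2 2.1.1 for alignment to GRCm38 and Cufflinks for quantification. The deposited values are FPKM per gene. The strand setting and the annotation release are not given in the sources used here. FPKM divides by library size, so a few abundant transcripts lower all other values of a library.

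Here, the entries of 1 symbol were summed, a pseudocount of 1 FPKM was added, and log2 ratios were taken for genes that reached 1 FPKM in the higher of both libraries, with 2-fold as the line for a call. A gene below 1 FPKM in 1 library passes only through the other, which partly sets the direction of its call. Each medium had 1 library, so no test was run and no p-value is given. Fragment numbers were approximated from the smallest step of FPKM times transcript length over 8409 genes and gave exact (Clopper-Pearson) 95% intervals. The FPKM of 3 fragments was taken as the floor of a gene in each library, and this floor was not applied to the intervals. These steps were checked on simulated data with counting error only. Known folds and intervals were simulated for genes of at least 5 FPKM in +N, so the check did not cover levels as low as those of Dlx4, Dlx5 and Dlx6. The genes named are the members, genes within 10 kb of them, genes of the lists, and the 3 genes most alike in pattern to each member that reached 5 FPKM. Members and lists were chosen with earlier results of these data known. Homeoboxes were cut from the longest coding sequences of GENCODE M21 (47080 of 47493 gene identifiers matched) by their conserved motif. The motif was widened to allow lysine and nucleotides were compared in place of proteins, both after the data were seen. Alternatives were pseudocounts of 0.1 and none, no filter, a filter at 5 FPKM, upper-quartile scaling, centred ratios, the highest entry per symbol and the shortest coding transcript as length. Computations ran in Python 3.11.15 with scipy 1.17.1, pandas 2.3.3 and numpy 2.4.6, and figures were drawn with matplotlib 3.10.9.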

Additional observations from a re-analysis of the deposited data

Results flagged for a closer look

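The ratio for FGF10 had opposite signs in the absence and presence of DBZ for 2 of the 8 genes. Both were lower with FGF10 without DBZ and higher with it when DBZ was present, as were 19% of 13748 genes. For Msx1 the log2 ratio was -0.50 without DBZ (+NF over +N) and 0.40 with it (+NFD over +ND). For Dlx3 it was -0.50 without DBZ and 0.43 with it. Every one of these 4 ratios had a counting interval that did not hold 1, but with 1 library per medium the difference between the media with and without DBZ was not tested. Mesenchyme markers had a median log2 ratio of -0.49 for FGF10 without DBZ and 1.23 with it, and their part in the pattern was not tested.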

How the results depend on the processing

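The number of members at least 2-fold higher moved with several settings. In +ND over +N it went from 2 to 1 with a filter at 5 FPKM, after centring and under upper-quartile scaling. In +NF over +N and in +NFD over +ND it went from 1 to 0 with the filter at 5 FPKM and with centred ratios. In +NFD over +N it went from 7 to 4 with upper-quartile scaling and to 3 with centred ratios. In +NFD over +NF it went from 3 to 6 with a pseudocount of 0.1 and with none. A smaller pseudocount raises the ratios of low genes by its construction, and the filter at 5 FPKM removes low members. Centring subtracts the median of all genes from each ratio, and upper-quartile scaling applies 1 factor per library. Both moved members that lay just above 2-fold below it by their construction. Why the libraries differed in these factors was not tested. The log2 ratio of Dlx6 went from 1.77 to 3.87 (pseudocount 0.1) and 4.86 (none) in +NFD over +N, and from 1.03 to 2.78 and 3.71 in +NF over +N. No member was 2-fold lower under any setting in these 5 comparisons. Of 46 ratios and differences between ratios, 44 kept their sign under upper-quartile scaling and under centring, the 2 others being Dlx1 in +ND over +N and the near-zero difference of Dlx5. Under the other settings all kept it, 33 of which could be computed with the filter at 5 FPKM. With the shortest coding transcript as length, the interval of Dlx1 for +NF over +ND also held 1 (0.956 to 1.30). No paired analysis was possible because each medium had 1 library, so that the groups share fewer than 2 replicate numbers, and no replicate could be left out. Depth limits Dlx6 most, since 3 fragments correspond to 0.0495 FPKM in +N.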

Other observations

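Other transcription factor genes outside the group had varied patterns. Irx4, of the Iroquois family, was at 0.538 (+N), 7.56 (+ND), 0.403 (+NF) and 1.33 FPKM (+NFD), so that +ND stood alone. Nkx2-3 was at 63.2, 14.9, 41.7 and 25.1 FPKM, lower in both DBZ libraries than in both others. Tgif1, which encodes a repressor of TGF-β signaling, was at 54.2, 160, 79.0 and 105 FPKM, with both DBZ libraries above both others. Prrx2 was at 18.0, 18.2, 17.7 and 40.2 FPKM, highest in +NFD. Foxi3, a forkhead gene of early dental and hair placodes, was at 0.545 FPKM in +N, listed at 0 in +ND, and at 5.85 in +NF and 2.40 in +NFD.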
